A study of Mus musculus with 11 samples.

Results

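Receptor genes of neural crest-derived neurons and of neuroblastoma, 5 in all, were followed across 4 knockdowns in the mouse neuroblastoma line Neuro-2A (N2A). They are Ntrk3, which encodes TrkC, the receptor kinase for neurotrophin-3; Ntrk2, which encodes TrkB, the receptor kinase for brain-derived neurotrophic factor; Ngfr, which encodes the p75 neurotrophin receptor; Ret, the receptor kinase of the GDNF family ligands; and Alk, the anaplastic lymphoma kinase. The members were chosen by name, with earlier results of these data known, and all 5 were present among 52661 genes of the expression table. The splicing table listed 160 events in these genes, of which 98 had at least 10 reads in every library, out of 220976 such events in the whole series. RNA had been collected 48 h after transfection of pooled siRNAs against Fubp1 (2 libraries), Khsrp (2 libraries), Khsrp and Fubp1 together (2 libraries, here the double knockdown) or Rbm38 (2 libraries), and of non-targeting pools (siNT, 3 libraries). All 5 groups were the same unmodified cell line and all had received siRNA, so no untransfected cells enter a comparison, and the 4 comparisons with siNT share the same 3 control libraries.

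Neurotrophins bind Trk kinases, which dimerise and signal through RAS and ERK, PI3K and AKT, and phospholipase C, while p75 lacks a kinase, partners with Trk receptors and sortilin, and can signal through JNK. Ret is activated by a ligand held on a GFRα coreceptor, and Alk by the ALKAL ligands. Trk, Ret and Alk transcripts are well known in sympathoadrenal cells and in neuroblastoma, where Alk is mutated in some tumours. TrkC and Ret are each made in forms with different intracellular ends by alternative splicing: a kinase-containing and a kinase-lacking TrkC, and a short-tailed and a long-tailed Ret.

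The authors' deposited table gave 1 RPKM (reads per kilobase of transcript, scaled to sequencing depth) per group and the authors' own log2 fold change and false discovery rate (FDR), so these levels carry no error. In that table, Fubp1 went from 180.07 RPKM in siNT to 27.89 in its knockdown and 19.82 in the double knockdown, Khsrp from 47.03 to 8.06 and 6.77, and Rbm38 from 34.47 to 4.03. Khsrp was also lower after Rbm38 knockdown (33.8 RPKM, authors' log2 fold change -0.70, FDR 0.0243). Fubp1 stood at 134.94 RPKM there (log2 fold change -0.39, FDR 0.07955). The cells carried a sympathoadrenal profile: 15 of 16 neuroblast markers were at or above 1 RPKM in every group, with a summed level of 1219.23 to 1819.37 RPKM. Of 8 glial markers 1 to 3 reached 1 RPKM, with Sox10 listed at 0 throughout, and 5 of 5 groups had at most 1 marker at 1 RPKM in each of the fibroblast, leukocyte and endothelial lists. The median read number per tested splicing event ran from 99 to 221 over the 11 libraries. No label names a batch. The titles carry numbers with gaps, and a split made here put libraries numbered 1 to 4 (siNT A and B, both Fubp1) in one set and those numbered 8 to 27 (siNT C and the other 3 knockdowns) in another. Values with a term for this library set are given where they change a call.

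The sequences of the 2 alternative ends of TrkC and of Ret come first, because the splicing results turn on them. They were read from GENCODE vM21 on GRCm38, each from the coding strand, 5′ to 3′. Ntrk3-202 ends in its own 14th exon after a 135 nt exon (chr7:78304292-78304426, minus strand, coding). Ntrk3-201 joins the same upstream 189 nt exon to a 131 nt exon (chr7:78260284-78260414) that begins the kinase domain. Both lines start with the last 30 bases of the shared 189 nt exon (chr7:78356027-78356056) in lower case. Capitals mark the first exon that is not shared, and the closing lower case of Ntrk3-202 is the coding end of its last exon with the stop codon (chr7:78302629-78302747).
Ntrk3-202: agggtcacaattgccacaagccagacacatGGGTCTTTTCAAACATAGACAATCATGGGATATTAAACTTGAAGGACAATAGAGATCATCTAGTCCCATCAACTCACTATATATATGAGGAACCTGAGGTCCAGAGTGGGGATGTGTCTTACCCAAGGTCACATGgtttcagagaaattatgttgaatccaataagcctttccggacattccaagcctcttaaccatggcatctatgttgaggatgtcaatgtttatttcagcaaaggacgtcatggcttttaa
Ntrk3-201: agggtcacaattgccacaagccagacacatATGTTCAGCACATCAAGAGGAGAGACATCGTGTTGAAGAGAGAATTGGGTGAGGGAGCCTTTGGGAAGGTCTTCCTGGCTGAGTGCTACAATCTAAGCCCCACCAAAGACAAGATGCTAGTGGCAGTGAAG

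The kinase-lacking Ntrk3-202 has 612 codons and the full-length Ntrk3-201 has 825. The first holds 251 coding bases after the shared 189 nt exon, and the second 890. Their whole transcripts differ more, at 3977 and 19703 nt.

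Ret-202 reads on from exon 19 into what Ret-201 removes as its last intron, and stops after 29 coding bases, while Ret-201 splices out 1277 nt and adds 155 coding bases from exon 20. Lower case gives the last 30 bases that both transcripts share (chr6:118155288-118155317, minus strand). Capitals mark the separate coding ends with their stop codons (chr6:118155256-118155287 for Ret-202 and chr6:118153853-118154010 for Ret-201).
Ret-202: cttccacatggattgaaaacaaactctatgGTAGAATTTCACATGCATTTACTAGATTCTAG
Ret-201: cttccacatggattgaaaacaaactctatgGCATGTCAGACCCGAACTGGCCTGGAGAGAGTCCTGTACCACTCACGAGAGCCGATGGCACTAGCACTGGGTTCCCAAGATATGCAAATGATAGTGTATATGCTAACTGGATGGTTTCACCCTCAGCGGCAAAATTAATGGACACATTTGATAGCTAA

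Transcript levels of 4 of the 5 receptors changed in at least 1 knockdown. Ret fell in every knockdown that removed Fubp1 or Khsrp, Ngfr fell in the same 3 knockdowns, and Alk rose after Fubp1 or Rbm38 knockdown but fell in the double knockdown. By the authors' FDR under 0.05, 4 of 5 members changed after Fubp1 knockdown, 2 of 5 after Khsrp knockdown, 4 of 5 in the double knockdown and 2 of 5 after Rbm38 knockdown. Over all 23378 genes that the authors tested, 22.5%, 8.16%, 26.8% and 15% passed in the same order; 12%, 3.82%, 13.2% and 7.96% were higher, and 10.5%, 4.34%, 13.7% and 7.02% lower.

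**Figure D1:**
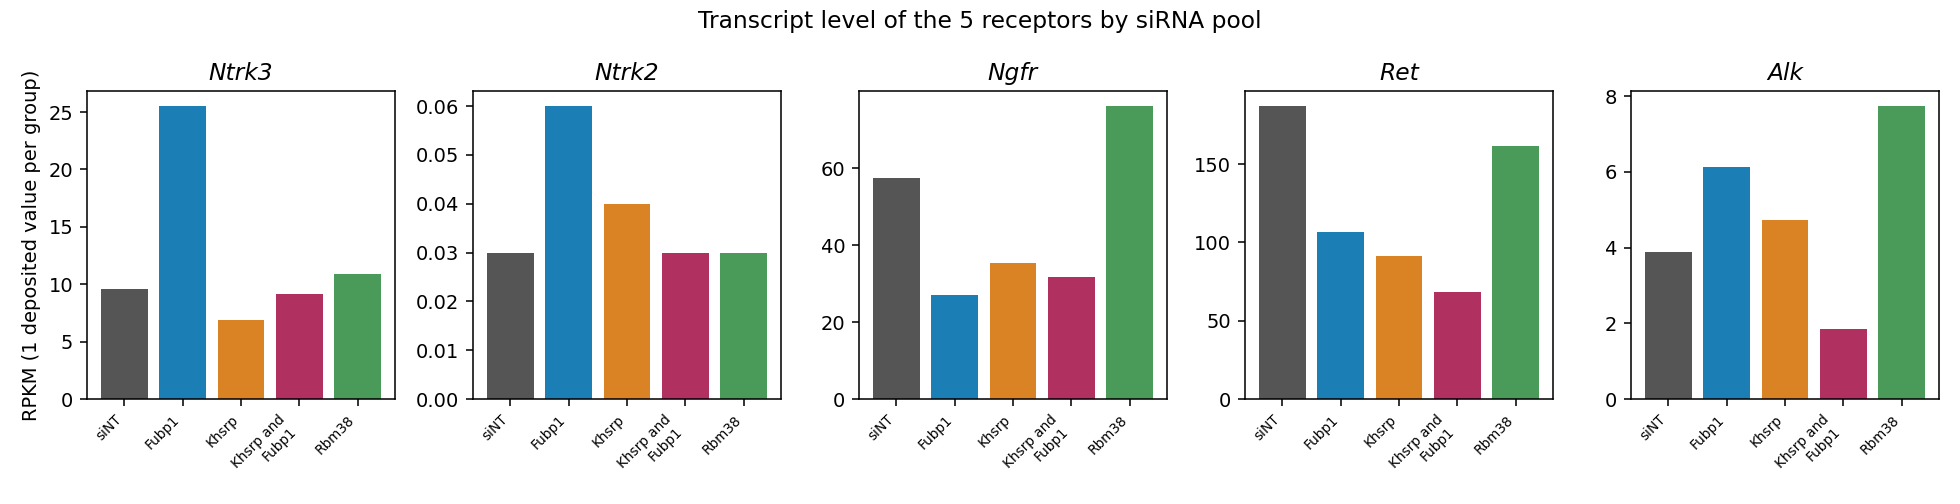
Bars give the authors' RPKM of each receptor (vertical axis, from 0, a separate scale for each gene) in siNT and the 4 knockdowns; there is 1 deposited value per group and hence no error bar. Ret falls from 187.0 in siNT to 68.1 in the double knockdown, and Alk is above its siNT level of 3.89 in 3 knockdowns and at 1.84 in the double knockdown.

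Because the deposited levels have no replicates, a level per library was also made from the splicing table: the mean number of junction reads over a gene's near-constitutive exons, scaled between libraries. This junction-read index compares libraries for 1 gene and is not a level per length. It was fitted in limma over 9285 genes, of which 35.1%, 11.5%, 41.4% and 22.7% passed an adjusted p of 0.05 in the Fubp1, Khsrp, double and Rbm38 knockdown.

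Ret was the most abundant of the 5 on the RPKM scale. The deposited table gave 187.0 RPKM in siNT, 106.84 after Fubp1 knockdown, 91.51 after Khsrp knockdown, 68.1 in the double knockdown and 161.29 after Rbm38 knockdown. The authors' log2 fold changes were -0.78 (FDR 1.0e-04), -1.07 (FDR 1.9e-07), -1.48 (FDR 7.1e-15) and -0.30 (FDR 0.258). The index of Ret was 5307.46, 5723.47 and 4127.09 in the 3 siNT libraries (A, B, C), 3049.31 and 2876.97 after Fubp1 knockdown, 2348.94 and 2217.46 after Khsrp knockdown, 1808.85 and 1755.37 with both knocked down, and 4313.53 and 3989.36 after Rbm38 knockdown. The libraries of the first 3 knockdowns all lay below every siNT library, and those of the Rbm38 knockdown overlapped siNT. The fitted log2 differences were -0.76 (SE 0.14, limma adjusted p 0.00385), -1.13 (SE 0.14, adjusted p 0.00273), -1.49 (SE 0.14, adjusted p 7.79e-05) and -0.27 (SE 0.14, adjusted p 0.19). Without siNT C the last was -0.41 (adjusted p 0.00361), and with a term for the library set 0.01 (adjusted p 0.963). All 16 exons counted had fewer reads than in siNT in each of the first 3 knockdowns, at a median ratio of 0.592, 0.471 and 0.368. The double knockdown was lower than the Fubp1 knockdown by a log2 difference of -0.73 (SE 0.15, limma adjusted p 0.00805), a comparison in which 35.9% of genes passed. The difference was -0.32 (adjusted p 0.147) with a term for the library set, and -0.69 (adjusted p 0.0642) without Fubp1 library A. Against the Khsrp knockdown the double knockdown differed by -0.36 (SE 0.15, adjusted p 0.129; 0.00858 with the library set term and 0.0086 without siNT C), where 22.9% of genes passed.

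Ngfr, whose product is the low-affinity neurotrophin receptor, stood at 57.33 RPKM in siNT, 26.97 after Fubp1 knockdown, 35.24 after Khsrp knockdown, 31.82 in the double knockdown and 76.12 after Rbm38 knockdown in the authors' deposited table. It fell in 3 knockdowns by the authors' log2 fold changes of -1.004 (FDR 5.7e-05), -0.89 (FDR 0.00155) and -0.97 (FDR 7.2e-05). The Rbm38 value was 0.24 (FDR 0.526). Its index was 2584.4, 2154 and 1480.32 in siNT, 1024.51 and 997.57 after Fubp1 knockdown, 1194.15 and 859.92 after Khsrp knockdown, 1477.87 and 725.22 with both knocked down, and 1688.31 and 3744.72 after Rbm38 knockdown. The first 3 knockdowns did not overlap siNT, though double knockdown A lay just under siNT C. The libraries of 1 group spread widely, and the fitted log2 differences of -0.999, -0.995 and -0.964 (SE 0.40 each) had limma adjusted p-values of 0.0777, 0.128 and 0.0782. Without siNT C they were -1.22, -1.22 and -1.19 with adjusted p-values of 0.0452, 0.044 and 0.0378. Without Rbm38 library A or B the first had an adjusted p of 0.0488 or 0.0485 and the third 0.0483 or 0.0479, and without double library A the third was -1.48 (0.0387). Without double library B it was -0.45 (0.464). Over all libraries left out in turn the Fubp1 value ran from -1.22 to -0.82 and the Khsrp value from -1.23 to -0.76, with adjusted p-values up to 0.245 and 0.484. With a term for the library set they were -1.22 (0.0451), -0.55 (0.564) and -0.52 (0.453). The double knockdown differed from the Fubp1 knockdown by 0.03 and from the Khsrp knockdown by 0.03 (SE 0.43 each).

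Alk was higher after Fubp1 or Rbm38 knockdown and lower in the double knockdown. It stood at 3.89 RPKM in siNT, 6.12 after Fubp1 knockdown, 4.74 after Khsrp knockdown, 1.84 in the double knockdown and 7.74 after Rbm38 knockdown in the authors' deposited table. The authors' log2 fold changes were 0.70 (FDR 0.00117), 0.12 (FDR 0.837), -1.16 (FDR 6.8e-08) and 0.83 (FDR 1.4e-04). The index of Alk was 101.13, 95.82 and 87.4 in siNT, 153.43 and 143.59 after Fubp1 knockdown, 109.23 and 114.66 after Khsrp knockdown, 37.46 and 30.97 with both knocked down, and 203.55 and 165.51 after Rbm38 knockdown. No knockdown overlapped siNT, with the double below and the others above. The fitted log2 differences were 0.65 (SE 0.14, limma adjusted p 0.00783), 0.24 (SE 0.14, adjusted p 0.27), -1.47 (SE 0.14, adjusted p 8.32e-05) and 0.96 (SE 0.14, adjusted p 0.00265). Without Fubp1 library A the first was 0.60 with adjusted p 0.0753.

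All 21 exons of Alk counted had more reads after Fubp1 and after Rbm38 knockdown than in siNT, and all 21 had fewer in the double knockdown, at ratios from 0.231 to 0.638. The double knockdown was lower than the Fubp1 knockdown by -2.12 (SE 0.16, adjusted p 2.03e-04) and lower than the Khsrp knockdown by -1.72 (SE 0.16, adjusted p 1.93e-04) on the log2 scale. It differed from the sum of the 2 single effects by -2.37 (SE 0.21, limma adjusted p 0.00196), a test that 4.49% of 9285 genes passed. Of the other members Ntrk3 departed from the sum by -1.24 (SE 0.30, adjusted p 0.0514), Ngfr by 1.03 (SE 0.59, adjusted p 0.36) and Ret by 0.40 (SE 0.21, adjusted p 0.314). With a term for the library set these were -2.31 for Alk (adjusted p 0.00166), -1.04 for Ntrk3 (adjusted p 0.0161), 1.25 for Ngfr (adjusted p 0.206) and 0.54 for Ret (adjusted p 0.0204). Leaving out siNT C gave the Ntrk3 departure an adjusted p of 0.0158 and the Ret departure 0.0206, and leaving out siNT B gave Ntrk3 0.0418.

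**Figure D2:**
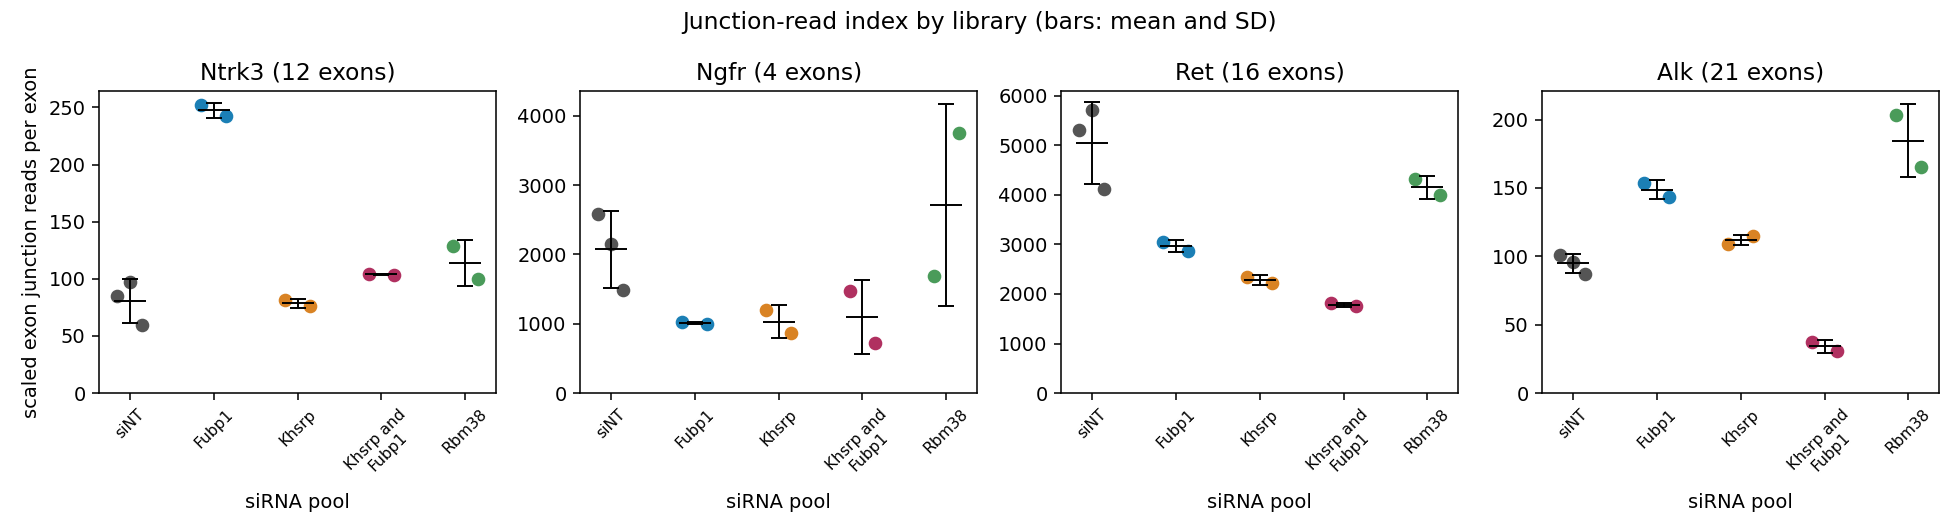
Points give the junction-read index of each library (vertical axis, scaled junction reads per exon, from 0, a separate scale for each gene), with a long tick for the group mean and whiskers for 1 SD (n = 3 for siNT, n = 2 otherwise). Ret is lowest in the double knockdown, at 1808.85 and 1755.37, and Alk lies at 37.46 and 30.97 there against 87.4 to 101.13 in siNT.

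Ntrk2 was at the limit of detection. The deposited table gave 0.03 to 0.06 RPKM in all groups, none of its 33 listed events had 10 reads in every library, and the authors' FDR was 0.302 to 1. Its splicing and its level could therefore not be compared.

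Ntrk3 was higher after Fubp1 knockdown on every scale, but by different amounts. The deposited table gave 9.61 RPKM in siNT, 25.52 after Fubp1 knockdown, 6.87 after Khsrp knockdown, 9.14 in the double knockdown and 10.89 after Rbm38 knockdown. The authors' log2 fold changes were 0.50 (FDR 0.0165), -0.29 (FDR 0.369), -0.80 (FDR 5.8e-05) and 0.50 (FDR 0.0247). The ratio of the 2 RPKM values was 1.40 on the log2 scale (0.1 RPKM added) after Fubp1 knockdown, 0.90 above the deposited fold change. A gap of that size was seen in 0.1% of 11987 genes with at least 1 RPKM in both groups. In the double knockdown the RPKM ratio was -0.07 on that scale, 0.73 above the fold change, a gap reached by 0.83% of 11929 genes. For Ret and Alk the 2 scales differed by at most 0.16 in any knockdown, and for Ngfr by at most 0.185.

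The index of Ntrk3 was 85.31, 96.81 and 59.47 in siNT, 252.18 and 242.49 after Fubp1 knockdown, 81.28 and 75.94 after Khsrp knockdown, 104.45 and 103.62 with both knocked down, and 128.37 and 99.73 after Rbm38 knockdown. Both Fubp1 libraries lay far above the rest. The fitted log2 differences were 1.65 (SE 0.20, limma adjusted p 5.8e-04), -0.01 (SE 0.20, adjusted p 0.986), 0.40 (SE 0.20, adjusted p 0.14) and 0.52 (SE 0.20, adjusted p 0.091). The sign in the double knockdown was thus opposite to that of the authors' fold change. With a term for the library set the index difference was 0.81 (adjusted p 0.00675) in the double and 0.93 (adjusted p 0.00819) in the Rbm38 knockdown. The double knockdown was lower than the Fubp1 knockdown by -1.25 (SE 0.22, adjusted p 0.00392), and by -0.64 (adjusted p 0.108) with that term.

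The 135 nt exon of kinase-lacking TrkC was included far more often in both knockdowns that removed Fubp1. Inclusion is given as PSI (percent spliced in), meaning how many of the junction reads include the exon (event at chr7:85449178-85449312 as deposited, in coordinates that do not follow GRCm38; the event was matched to the GENCODE exon printed above by its length, by the 51600 nt intron before it and by the 43877 nt up to the first kinase exon). PSI was 49.22, 40.66 and 44.68 in the 3 siNT libraries (A, B, C), 83.71 and 85.58 after Fubp1 knockdown, 51.69 and 60.3 after Khsrp knockdown, 87.37 and 83.69 with both knocked down, and 48.63 and 53.96 after Rbm38 knockdown. These values rest on 103 to 664 reads per library. The 4 libraries without Fubp1 lay above all other libraries, and the Khsrp knockdown lay above siNT without overlap.

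The mean rose from 44.86% ± 4.28 (SD, n = 3) to 84.64% ± 1.32 (n = 2) after Fubp1 knockdown, by 39.8 points (2.76 on the log2 odds scale, SE 0.31, limma adjusted p 0.0294). In the double knockdown it rose by 40.7 points (2.85, SE 0.31, adjusted p 7.88e-04). An event was called at an adjusted p under 0.05 over 60137 tested events and a difference of at least 10 points. By that rule 0.0565% of events were called after Fubp1 knockdown, 0% after Khsrp, 6.37% in the double and 0% after Rbm38 knockdown. The first share is 34 events, and with the trend of the spread taken over read depth in place of the mean log2 odds it was 76, the Ntrk3 exon among them. Of the 11 tested member events, 1, 0, 2 and 0 were called. At an unadjusted p under 0.05, 5349 of all events passed after Khsrp and 5478 after Rbm38 knockdown. With weights for read depth in the same limma fit 1.16%, 0.186%, 6.98% and 0.358% were called, and 1, 1, 3 and 0 of the members. For the double minus the Fubp1 knockdown, the Khsrp knockdown and the sum of both effects the weighted shares were 4.21%, 4.63% and 0.472%.

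The Fubp1 call of the Ntrk3 exon did not survive every setting. With weights the adjusted p was 6.25e-06. It was 0.0771 with a term for the library set, and 0.0532 to 0.343 when any 1 of the 11 libraries was left out, with a difference of 37.7 to 42.0 points throughout. In the double knockdown the adjusted p was at most 0.0134 in all settings. The authors' deposited table marks this exon as changed in the Fubp1 and the double knockdown and not in the others. It marks 4.7%, 2.36%, 13.2% and 2.53% of the tested events in the Fubp1, Khsrp, double and Rbm38 knockdown.

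The double and the Fubp1 knockdown lay close together, at a difference of 0.89 points (0.09 on the log2 odds scale, SE 0.34, adjusted p 0.928). The double knockdown exceeded the Khsrp knockdown by 29.5 points (adjusted p 0.00891), a comparison in which 3.34% of events were called. Without double library A it was 27.7 points (adjusted p 0.065), and without Khsrp library A 25.2 points (adjusted p 0.0579). The Khsrp knockdown itself stood 11.1 points above siNT (adjusted p 0.589) and the Rbm38 knockdown 6.44 points (adjusted p 0.769).

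**Figure D3:**
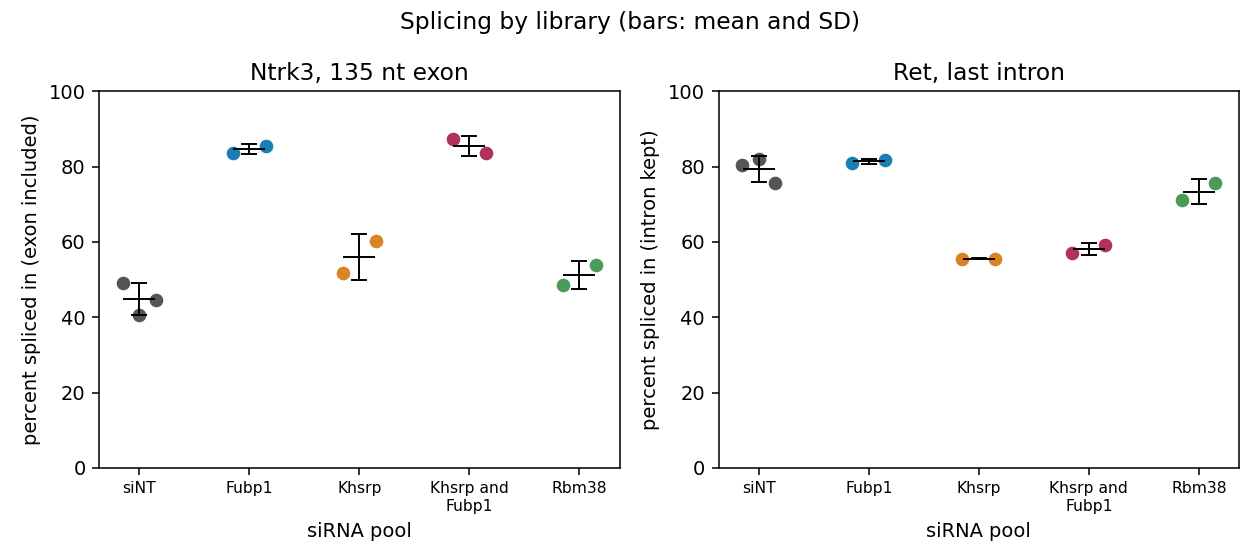
Points give PSI in percent for each library (vertical axis 0 to 100), left for inclusion of the 135 nt exon of Ntrk3 and right for keeping the last intron of Ret, with a long tick for the mean and whiskers for 1 SD (n = 3 for siNT, n = 2 otherwise). The Ntrk3 exon is above 83 only in the Fubp1 and double knockdown, and the Ret intron is below 60 only in the Khsrp and double knockdown.

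Reads at exons along the gene were then compared between groups. Exons upstream of the branch belong to both transcripts, and the 131 and 173 nt exons only to the full-length one. These reads do not give the amount of each form. In every siNT library the kinase exons had more reads than the shared exons, although shared exons count both forms. The mean scaled reads at 9 shared exons were 87.3, 94.4 and 54.9 in siNT, 301.9 and 293.3 after Fubp1 knockdown, 85.3 and 82.0 after Khsrp knockdown, 127.9 and 124.2 with both knocked down, and 125.3 and 99.2 after Rbm38 knockdown. At the 2 kinase exons they were 87.6, 119.9 and 89.6 in siNT, 69.7 and 55.6 after Fubp1 knockdown, 75.6 and 58.2 after Khsrp knockdown, 13.2 and 17.3 with both knocked down, and 170.2 and 110.4 after Rbm38 knockdown. The 2 stretches thus moved apart. After Fubp1 knockdown shared exons were 3.77-fold higher than in siNT while kinase exons were 1.58-fold lower, and in the double knockdown shared exons were 1.60-fold higher while kinase exons were 6.47-fold lower. None of these 4 pairs of groups overlapped, and an exact permutation test of 2 against 3 libraries gave p = 0.1, 0.1, 0.1 and 0.1, two-sided, the smallest value it allows.

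The reads that include or skip the 135 nt exon itself moved in the same directions, but the fall in skipping reads was clear of siNT only in the double knockdown. Scaled inclusion reads averaged 85.1 ± 25.8 (SD, n = 3) in siNT, 482.1 ± 37.5 (n = 2) after Fubp1 knockdown, 224.3 ± 28.5 in the double, 83.6 ± 2.1 after Khsrp and 116.8 ± 11.1 after Rbm38 knockdown. Scaled skipping reads averaged 105.0 ± 33.2 in siNT, 87.2 ± 2.1 after Fubp1 knockdown, 37.6 ± 3.1 in the double, 66.4 ± 14.7 after Khsrp and 110.8 ± 6.1 after Rbm38 knockdown. After Fubp1 knockdown inclusion reads were 5.67-fold higher and skipping reads lay within the siNT range, unlike the kinase exon reads. In the double knockdown inclusion reads were 2.64-fold higher and skipping reads 2.79-fold lower, both without overlap.

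The ratio of kinase exon reads to reads at the 103 and 189 nt exons just before the branch needs no scaling between libraries. It was 0.761, 0.935 and 1.10 in siNT, 0.224 and 0.186 after Fubp1 knockdown, 0.753 and 0.574 after Khsrp knockdown, 0.0824 and 0.132 with both knocked down, and 1.13 and 0.836 after Rbm38 knockdown. It was below every siNT library in the Fubp1, double and Khsrp knockdowns (exact permutation test, two-sided, p = 0.1, 0.1 and 0.2). The double knockdown rested on 23 and 23 kinase exon reads. A ratio was also taken between exons that both forms share. Reads at the 103 and 189 nt exons over reads at the 75 and 72 nt exons further 5′ were 1.202 ± 0.206 (SD, n = 3) in siNT, 0.831 ± 0.026 (n = 2) after Fubp1 knockdown and 0.878 ± 0.128 (n = 2) with both knocked down. Both lay below siNT without overlap (exact permutation test, two-sided, p = 0.2 each), while the Khsrp and Rbm38 knockdowns, at 1.122 and 1.134, overlapped siNT. The part of this difference in the ratio of kinase exon reads was not tested. The same kind of 3′ to 5′ ratio in Ret, at exons common to its isoforms, ran from 0.482 to 1.01 over all libraries. It overlapped siNT in each knockdown, with siNT C at the top of the range. The values split by library set, however. In the set of siNT A, siNT B and both Fubp1 libraries the ratio ran from 0.482 to 0.5055. In the set of siNT C and the other knockdowns it ran from 0.652 to 1.01. Because siNT lies in both sets, overlap with siNT does not compare libraries within a set. The cause of the split was not tested.

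**Figure D4:**
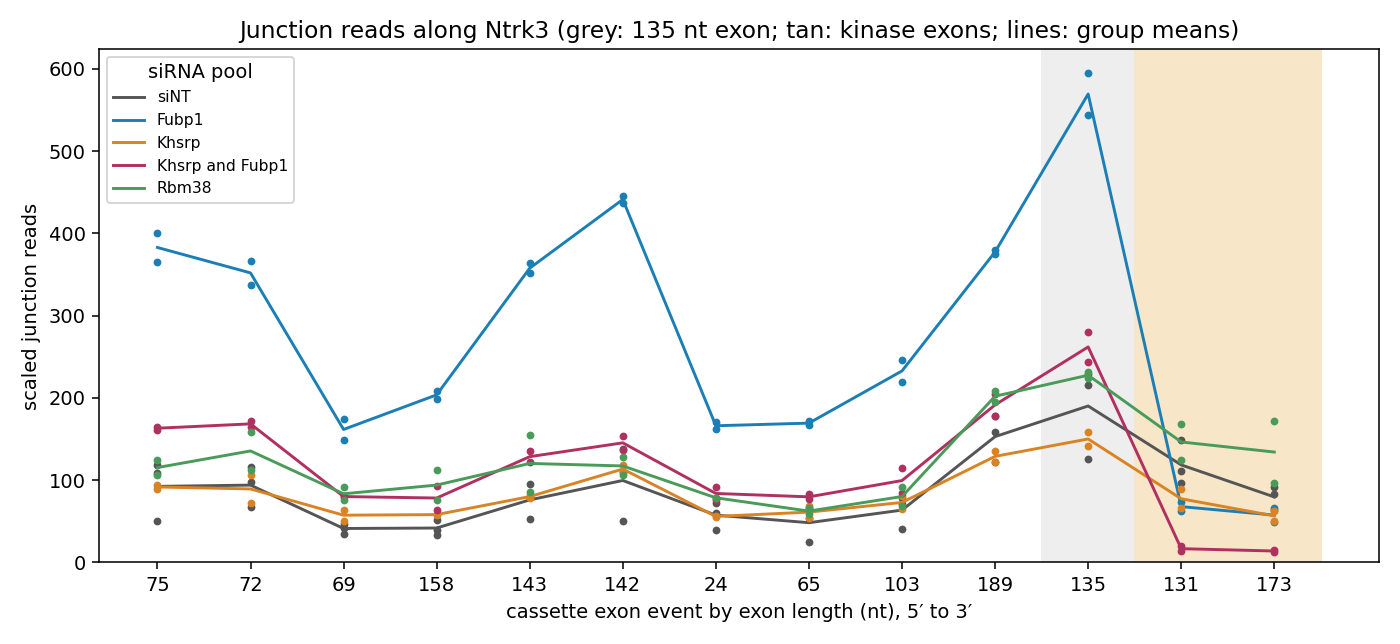
Scaled junction reads (vertical axis, from 0) are plotted for 13 Ntrk3 exon events in order from 5′ to 3′ (horizontal axis, exon length in nt); points are libraries, lines are group means, grey marks the 135 nt exon and tan the kinase exons. The Fubp1 line is highest up to the 135 nt exon and then drops to about the Khsrp level, and the double knockdown drops to 12.6 to 19.6 at the kinase exons.

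The 24 nt exon of Ntrk3, upstream of the branch, was included at 100% in all 3 siNT libraries and at 93.8% and 94.9% in the double knockdown. The difference of -5.65 points had a limma adjusted p of 0.0444 (0.158 with weights) and was under the 10 points of a call. The 14921 nt intron of Ntrk3, the third event tested, had PSI from 0% to 8.70% and no difference over 2.60 points.

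The last intron of Ret was kept less in both knockdowns that removed Khsrp (event at chr6:118104029-118105305 as deposited, 1277 nt, as is the last intron of Ret-201). PSI was 80.53, 82.06 and 75.58 in siNT, 80.97 and 81.92 after Fubp1 knockdown, 55.6 and 55.46 after Khsrp knockdown, 56.95 and 59.29 with both knocked down, and 71.1 and 75.68 after Rbm38 knockdown. The 4 libraries with Khsrp knockdown lay below all others, and the depth was 587 to 4393 reads per library. The mean went from 79.4% ± 3.39 (SD, n = 3) to 58.1% ± 1.65 (n = 2) in the double knockdown, a difference of -21.3 points (-1.48 on the log2 odds scale, SE 0.29, limma adjusted p 0.0121).

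After Khsrp knockdown the mean was 55.5% ± 0.10 (n = 2), a difference of -23.9 points (-1.64, SE 0.29) with an adjusted p of 0.258 in a comparison where no event of 60137 passed. With read weights the adjusted p was 9.52e-05, and 0.00205 with weights and a term for the library set. The double knockdown call was lost with that term alone (-17.5 points, adjusted p 0.13), without double library A (0.0768) or B (0.0657), and with only the 2 groups fitted (0.0516). The authors' deposited table marks the intron as changed in the Khsrp and the double knockdown and not in the others. The double minus the Fubp1 knockdown was -23.3 points (adjusted p 0.0415, 0.502 with the library set term), where 1.18% of events were called. Leaving out any library but siNT C raised that adjusted p to between 0.0575 and 0.204. Against the Khsrp knockdown it differed by 2.59 points (SE 0.32 on the log2 odds scale, adjusted p 0.854), and the Fubp1 and Rbm38 knockdowns differed from siNT by 2.05 (adjusted p 0.876) and -6.00 points (adjusted p 0.662).

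The 2 ends of this intron were read unequally. In siNT A, 2523 reads crossed its upstream junction unspliced, 256 crossed its downstream junction unspliced and 336 were spliced. By the annotation Ret-202 ends inside the intron, so its transcripts cross the upstream junction and not the downstream one. The unspliced share at the upstream junction was 88.2%, 89.3% and 84.5% in siNT, 88.6% and 89.4% after Fubp1 knockdown, 67.4% and 66.8% after Khsrp knockdown, 69.8% and 73.2% with both knocked down, and 81.1% and 84.5% after Rbm38 knockdown. At the downstream junction it was 43.2%, 44.8% and 43.0% in siNT, 43.1% and 38.9% after Fubp1 knockdown, 30.6% and 32.4% after Khsrp knockdown, 24.8% and 15.2% with both knocked down, and 38.3% and 44.1% after Rbm38 knockdown. Both junctions were lower in the Khsrp and double knockdowns than in any siNT library. In the double knockdown each junction alone gave a call (-15.8 points, limma adjusted p 0.0179, and -23.6 points, adjusted p 0.0135). Unspliced reads outnumbered spliced reads at the upstream junction in all 11 libraries and at the downstream junction in none.

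**Figure D5:**
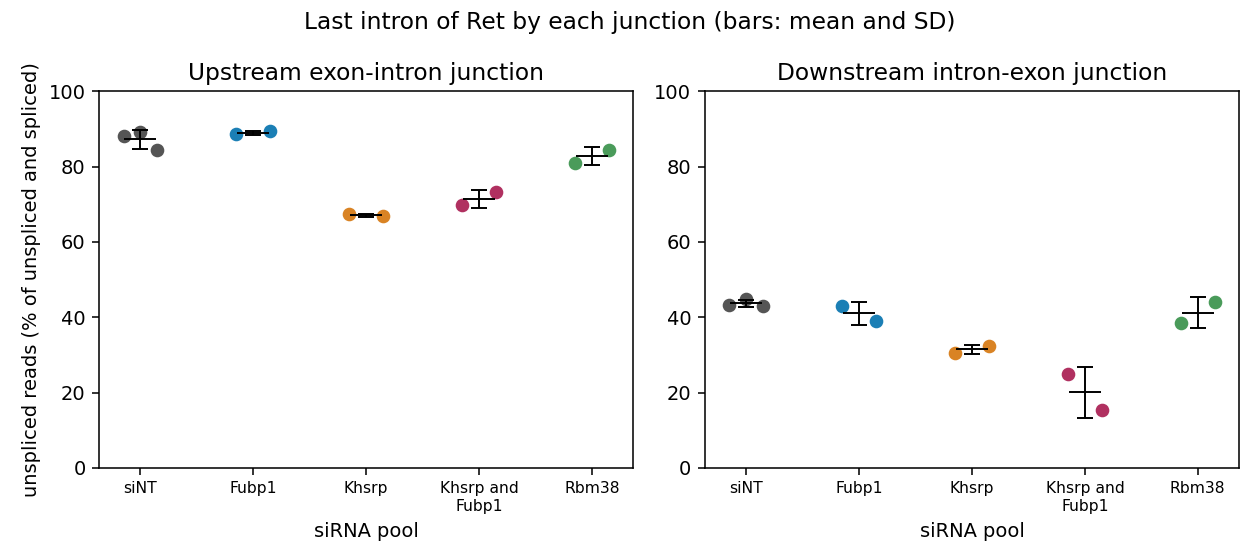
Points give, for each library, unspliced reads as a percent of unspliced and spliced reads at the upstream (left) and the downstream (right) junction of the last Ret intron (vertical axis 0 to 100), with a long tick for the mean and whiskers for 1 SD (n = 3 for siNT, n = 2 otherwise). The Khsrp and double knockdown libraries lie at 66.8% to 73.2% on the left and 15.2% to 32.4% on the right.

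The other tested Ret event, a 3434 nt intron, was kept at 0.89% to 3.54%. Its difference after Khsrp knockdown was 1.92 points (limma adjusted p 0.52, with weights 0.0108), and the authors' table marks it in the Khsrp and double knockdown. The remaining 16 introns of Ret had a mean PSI below 1 and all of its 16 exons above 99.

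In Alk 6 events were tested and none was called. The first intron of Alk (222866 nt) had PSI values of 5.38, 3.88 and 3.07 in siNT, 4.55 and 12.32 after Fubp1 knockdown, 8.32 and 0.93 after Khsrp knockdown, 20.37 and 17.81 with both knocked down, and 0.78 and 0.75 after Rbm38 knockdown. Both double knockdown libraries lay above all others. The difference of 14.98 points had a limma adjusted p of 0.057 (0.0115 with weights, 0.0223 and 0.0208 without Khsrp library A or B), and the authors' table marks it in the double knockdown. All of its unspliced reads, 1 to 34 per library, crossed the upstream junction and none the downstream one, and spliced reads numbered 43 and 30 in the double knockdown against 63 to 124 in siNT. The other 5 Alk events, exons of 91, 130 and 165 nt and introns of 27794 and 485 nt, differed from siNT by -4.40 to 2.50 points, with depths down to 13 reads. Ngfr had 8 events with enough reads: 4 exons at a mean PSI above 99 and 4 introns below 1.

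Of the 4 neurotrophins 1, Ntf5, exceeded 0.5 RPKM in any group, at 0.5 in siNT and 0.95 in the double knockdown (authors' FDR 0.0772). Bdnf rose in the double knockdown by the authors' test while under that level in every group. The GDNF family ligand Artn went from 1.65 RPKM in siNT to 0.48 in the double knockdown (FDR 0.158), and Gdf15, a stress-induced cytokine of the same receptor system, fell after Fubp1 knockdown from 9.75 to 1.67 RPKM (authors' log2 fold change -2.35, FDR 0.002). Of the heparin-binding factors proposed as Alk ligands, Ptn rose after Rbm38 knockdown from 58.12 to 99.97 RPKM (authors' log2 fold change 0.87, FDR 1.6e-10), and Mdk stood at 0.65 to 1.41 RPKM.

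Among coreceptors, Gfra1, the coreceptor for GDNF at Ret, rose in the 3 knockdowns in which Ret fell. The authors' table gave 3.19 RPKM in siNT, 6.37 after Fubp1 knockdown, 5.9 after Khsrp knockdown, 4.67 in the double knockdown and 2.64 after Rbm38 knockdown, with log2 fold changes of 1.25 (FDR 3.5e-10), 1.02 (FDR 2.85e-06), 0.93 (FDR 5.0e-06) and -0.32 (FDR 0.296). Gfra2 was at 0.56 to 1.26 RPKM and passed in no knockdown. Ltk, the kinase closest to Alk, fell in the same 3 knockdowns, from 2.39 RPKM to 0.91, 1.39 and 0.57, by the authors' log2 fold changes of -1.33 (FDR 1.2e-08), -0.92 (FDR 4.6e-04) and -2.06 (FDR 2.1e-17).

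Sort1, the sortilin that pairs with p75, rose after Fubp1 knockdown in the authors' deposited table (23.94 to 36.85 RPKM, log2 fold change 0.63, FDR 7.7e-04). Lingo1 fell after Khsrp knockdown (18.33 to 11.88 RPKM, FDR 0.0447) and in the double knockdown (10.52 RPKM, FDR 0.0204), and Maged1, a p75 partner, fell in the double knockdown (326.4 to 222.04 RPKM, FDR 0.0112). Sorl1 rose after Rbm38 knockdown from 0.11 to 0.58 RPKM (FDR 1.6e-06). Kidins220, a scaffold of Trk and p75, had 65.06 RPKM in siNT and passed in no knockdown.

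The targets and feedback inhibitors of ERK that passed after knockdown of Fubp1, Khsrp or both were all lower. Of 23 tested genes, 13 fell and 0 rose after Fubp1 knockdown, 5 fell and 0 rose after Khsrp knockdown, 12 fell and 0 rose in the double knockdown, and 2 fell and 1 rose after Rbm38 knockdown. The list's median log2 fold change was -0.71, -0.53, -0.61 and -0.11, beside 0.00, -0.003, 0.001 and 0.023 over all genes tested, of which the shares that fell are given above. Egr1, an immediate early transcription factor, went from 10.99 RPKM to 2.32, 2.99 and 1.02 in the Fubp1, Khsrp and double knockdown (authors' log2 fold changes -2.23, -2.04 and -3.27, FDR 3.0e-10, 4.2e-08 and 2.7e-19). Etv4, an ETS factor induced downstream of Ret, fell from 62.76 RPKM to 27.47, 48.21 and 28.53, and Dusp4, an ERK phosphatase, from 93.98 to 38.18, 54.58 and 68.87 (FDR at most 0.0493 for each). Dusp7 and Fos fell after Rbm38 knockdown, from 4.8 to 2.7 and from 1.91 to 1.14 RPKM. Fos also fell after Fubp1 knockdown (1.19 RPKM, FDR 0.0204).

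Over all genes tested, 22.5%, 8.16%, 26.8% and 15% passed in either direction in the Fubp1, Khsrp, double and Rbm38 knockdown, and a list's share near these values is not a result about the list. These shares run over all 23378 genes that the authors tested, and none was taken over genes at the lists' levels. By the junction-read index, a different test over 9285 genes, they were 35.1%, 11.5%, 41.4% and 22.7%. Whether a list's share further away stands out was not tested. Of 31 adaptors and proximal effectors, 11 rose and 5 fell after Fubp1 knockdown, 0 rose and 7 fell after Khsrp knockdown, 5 rose and 5 fell in the double, and 0 rose and 6 fell after Rbm38 knockdown, or 51.6%, 22.6%, 32.3% and 19.4%. The ubiquitin ligase Cblb (10.28 to 20.29 RPKM) and the insulin receptor substrate Irs1 (4.42 to 8.32) rose after Fubp1 knockdown. Irs1 fell after Khsrp knockdown (3.17 RPKM, FDR 0.0103) and in the double (3.46 RPKM, FDR 0.0459). Crk fell after Khsrp and double knockdown (51.92 to 26.97 and 33.25 RPKM), as did Irs2 in the first (48.79 to 31.84) and the RAS exchange factor Sos1 in the second (15.23 to 7.71). Crk and Sos1 also fell after Fubp1 knockdown (41.52 RPKM, FDR 0.0039, and 9.97 RPKM, FDR 4.4e-04). Frs2 and Shc1, the docking proteins of Trk and Ret, fell after Rbm38 knockdown (15.85 to 10.1 and 50.56 to 40.09 RPKM) and rose after Fubp1 knockdown (27.27 and 80.91 RPKM). Both also rose in the double (22.35 RPKM, FDR 0.005, and 73.07 RPKM, FDR 0.0139).

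Of 20 RAS and ERK pathway genes, 6 rose and 4 fell after Fubp1 knockdown, none passed after Khsrp knockdown, 2 rose and 5 fell in the double, and 1 rose and 4 fell after Rbm38 knockdown, or 50%, 0%, 35% and 25%. Nras fell after Fubp1 knockdown, from 82.81 to 44.54 RPKM, and rose after Rbm38 knockdown (98.63 RPKM, FDR 0.0239). In the double it stood at 78.57 RPKM, while the authors' log2 fold change was -0.54 (FDR 4.1e-04), a larger fall than these levels give. Rasa1, a RAS inhibitor, fell in the double knockdown from 53.71 to 25.71 RPKM (log2 fold change -1.27, FDR 2.5e-19). Rps6ka3 fell after Rbm38 knockdown (58.36 to 36.4 RPKM), after Fubp1 knockdown (44.51 RPKM, FDR 0.0011) and in the double (35.56 RPKM, FDR 1.0e-05). Of 20 PI3K and AKT genes, 3 rose and 1 fell, none passed, 3 rose and 5 fell, and 4 rose and 0 fell in the same order, or 20%, 0%, 40% and 20%. Pik3r3, a regulatory subunit of PI3K, rose in the Fubp1, double and Rbm38 knockdowns, from 15.16 RPKM to 64.87, 39.98 and 20.99 (authors' log2 fold changes 2.02, 1.38 and 0.53). Foxo3 rose after Fubp1 knockdown (12.43 to 28.0 RPKM) and Pik3cd rose after Rbm38 knockdown (2.36 to 6.49). Foxo3 also rose in the double (21.26 RPKM, FDR 9.6e-05) and after Rbm38 knockdown (18.57 RPKM, FDR 0.0101).

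Of 19 genes of p75 signalling, 2 rose and 6 fell after Fubp1 knockdown, 3 rose and 4 fell after Khsrp knockdown, 5 rose and 6 fell in the double, and 3 rose and 5 fell after Rbm38 knockdown, or 42.1%, 36.8%, 57.9% and 42.1%. The JNK genes Mapk8, in the Fubp1 and double knockdown, and Mapk10, in the Khsrp knockdown, fell (75.81 to 51.46 and 38.91, and 36.46 to 19.4 RPKM). Mapk10 also fell in the double (25.97 RPKM, FDR 8.1e-11) and after Rbm38 knockdown (24.12 RPKM, FDR 0.0159). Traf6 fell after Khsrp knockdown (12.05 to 7.86 RPKM), Irak1 after Rbm38 knockdown (39.55 to 26.95), and Adam10, a sheddase of p75, in the double knockdown (44.63 to 19.21). Traf6 was also lower after Fubp1 knockdown (8.71 RPKM, FDR 0.00217) and in the double (6.71 RPKM, FDR 7.6e-09). Adam10 also fell after Khsrp knockdown (28.1 RPKM, FDR 0.00469) and rose after Rbm38 knockdown (51.79 RPKM, FDR 0.0399). Among 41 other receptor tyrosine kinases, 6 rose and 2 fell, 2 rose and 3 fell, 6 rose and 7 fell, and 3 rose and 4 fell, or 19.5%, 12.2%, 31.7% and 17.1%, near the shares over all genes. Pdgfra stood at 1.12 RPKM in siNT, 1.55 after Fubp1 knockdown and 2.23 in the double, while the authors' log2 fold changes were 1.97 and 2.14, more than these levels give. By the authors' log2 fold change Ddr1 rose after Fubp1 and Rbm38 knockdown (1.20 and 1.01), Ptk7 after Khsrp and double knockdown (0.83 and 0.61) and Tyro3 after Rbm38 knockdown (0.74), where Ptk7 fell (-0.78). Ryk fell after Khsrp knockdown (-0.63) and Aatk in the double (-1.24). Ddr1 also rose in the double (0.55, FDR 0.0041), and Ryk also fell after Rbm38 knockdown (-0.49, FDR 0.0038).

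Of 703 tested events in 112 genes of these lists, 39 (5.55%, against 6.37% of all events) were called in the double knockdown, 11 higher and 28 lower, and 0 in each of the other knockdowns. That share is no result about the lists, and the called events are given one by one. Each pair of values runs from siNT to the double knockdown. The 3 largest losses of inclusion lay in Rasa1 and Nf1, which both inhibit RAS. The 53 nt exon of Rasa1 went from 99.5% ± 0.25 (SD, n = 3) in siNT to 18.5% ± 4.44 (n = 2), its 151 nt exon from 99.7% to 40.4%, and a 135 nt exon of Nf1 from 100% to 26.4%. Kidins220 lost exons of 114 nt (72.8% to 30.5%) and 132 nt (99.7% to 65.5%). Exons of Sos1, Sos2, Grb14, Map2k5, Rps6ka3, Tsc2, Rictor, Ripk2, Maged1 and Adam10 were among the others that were lower. Mapk8 and Mapk9 each exchanged their pair of 72 nt exons, in Mapk9 from 87.7% to 58.7% for one and from 14.2% to 39.7% for the other. Higher inclusion was called for exons of Cblb (24.3% to 53.7%), Ddr1, Etv4 and Shc1 and for an alternative 3′ splice site of Nck2. Introns were kept more in Sh2b1 (24.1% to 61.3%), Irs1, Crk and Rictor and less in Braf, Irak1 and Spred3.

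The genes whose 4 authors' log2 fold changes were nearest to those of a member, by Euclidean distance among 12399 genes of at least 1 RPKM in siNT, were Pygl, Cxcl1 and Ptbp2 for Ret (0.163 to 0.194), Spint1, Car6 and Prokr1 for Ngfr (0.053 to 0.257), Fam120c, Tmem104 and Scn3a for Ntrk3 (0.195 to 0.283) and Mab21l2, Hdac9 and AC114005.3 for Alk (0.399 to 0.538). Those for Ntrk3 rest on the authors' fold change, which parted from the other scales above. The cassette exons with a PSI profile nearest to the 135 nt exon of Ntrk3 over the 11 libraries, among 21320 tested, were a 54 nt exon of Stox2, a 507 nt exon of Ccdc136 and a 167 nt exon of Ppp1r16a, at distances of 31.2, 31.4 and 31.5 points. Stox2 averaged 43.4% in siNT, 67.3% after Fubp1 knockdown and 85.8% in the double knockdown. These distances compare the same libraries and controls and are given as a description.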

How the data were processed

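The members and gene lists were chosen with earlier results of these data known. Messenger RNA libraries (stranded, polyadenylated RNA with inserts longer than usual, per the labels' protocols) were made in biological duplicate or triplicate, with groups and letters as in the sample descriptions. The authors deposited RPKM per group with log2 fold changes, p-values and FDR (q-value), a table of PSI in percent per library whose quality text holds inclusion and exclusion read counts, and a table of PSI score and True or False call per event. Salmon 0.14.1, edgeR and mm10 are named in the submitters' processing notes; how replicates were combined into an RPKM value, the calling rule, the depth of whole libraries and the splicing tool's version are not given in the sources used here. PSI recomputed from the reads was within 0.05 points of the deposited percent.

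Events with at least 10 reads in all 11 libraries and a mean PSI of 1 to 99 were fitted in limma 3.58.1 (R 4.3.3) on log2 odds (inclusion over exclusion reads, 0.5 added to each) with 1 mean per group, empirical Bayes moderation with a trend and Benjamini-Hochberg adjustment within a comparison. Differences between means of PSI are in points. The junction-read index (exons of mean PSI 95 or more, 9285 genes, each library scaled by its median ratio to the genes' geometric means), its limma fit, and the read ratios in Ntrk3 and Ret were added after the data were seen. Both fits were run on simulated data with independent noise of a fixed size and no library set effect. Those runs therefore say nothing about such an effect. Without molecular identifiers, precision from read numbers covers only counting error. A bulk level cannot tell fewer cells from less RNA per cell.

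Event coordinates do not follow GRCm38; events were matched to GENCODE vM21 by exon and intron length. Replicate letters were not used to pair samples in the main fit. Named genes were all members, all tested member events, for each pathway list and knockdown the 2 genes of lowest FDR (under 0.05, at least 1 RPKM), ligands and coreceptors above 0.5 RPKM, called pathway events, and the 3 nearest genes or exons. Some genes this rule names are not reported here. Alternatives covered offset, depth, PSI range, weights, library set, replicate block, the trend of the spread, thresholds, samples fitted and leaving out each library.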

Additional observations from a re-analysis of the deposited data

Results flagged for a closer look

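The effect of Fubp1 knockdown on Alk depended on whether Khsrp was also knocked down. The junction-read index of Alk in the double knockdown lay -2.37 (log2, SE 0.21, limma adjusted p 0.00196) from the sum of the 2 single effects, a departure that 4.49% of 9285 genes passed. It stayed between -2.50 and -2.23 when any 1 library was left out. All 21 exons counted were above siNT after Fubp1 knockdown and below it in the double knockdown. The index averages these same exons in the same libraries, so their agreement is no separate support. Groups of 2 or 3 libraries were too small to examine single libraries for outlying values.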

How the results depend on the processing

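The labels do not say whether a replicate letter marks more than a name. Differences between A and B libraries had correlations of -0.062 to 0.0577 between groups over all tested events. Counting error enters these differences, so low correlations do not settle it. With the replicate block the Ntrk3 exon after Fubp1 knockdown stood at 39.7 points (adjusted p 0.129) and 0 member events were called there. With the library set term it was 39.7 points (0.0771, 0 member events), and with only the 2 groups 39.8 points (0.19, 0 member events). Leaving out 1 library gave 37.7 to 42.0 points (0.0532 to 0.343), 0 to 0 member events there and 0 to 2 of all events, against 34; the count was 215 at a mean PSI of 5 to 95, 698 with weights and 76 with the trend over read depth, an alternative added after the data were seen. In the double knockdown the Ret intron was at -17.5 points (0.13) with the library set term and 1 member event was called, -21.3 (0.0516) with only the 2 groups, and -23.2 to -19.9 without 1 library, with 1 to 3 member events. After Khsrp knockdown it was -23.9 points with weights and -20.1 with weights and the library set term, and 1 member event was called with each, 0 otherwise. By downstream junction reads alone it turned to -2.65 after Fubp1 knockdown, to -11.4 for the double minus Khsrp and to -8.77 for the double minus the sum; without 1 library the last ran from -0.80 to 2.44, and the double minus Fubp1 difference of the Ntrk3 exon from -0.95 to 2.73. At FDR under 0.01, 1 member passed after Rbm38 knockdown, and the other member counts moved by no more than 1.5 times. The log2 difference of Ntrk3 in the double knockdown was 0.40 by the junction-read index. The cause was not tested. Groups of 2 or 3 libraries limit the precision of every value here.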
